A study of Mus musculus with 31 samples.

Results

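The Hes and Hey Notch effectors described here are 7 mouse genes, Hes1, Hes5, Hes6, Hey1, Hey2, Heyl and Nrarp, of the 47729 genes listed in the count table, 33331 of which had at least 1 count. They were taken from the table by Ensembl identifier. All 7 were found, and all 7 passed the filter on low counts that left 19332 genes for testing. RNA-seq was done on 31 pieces of nerve cut by laser from frozen sections of mouse embryos carrying the Sox10:H2BVenus BAC transgene, in which a nuclear Venus protein under Sox10 control marks neural crest-derived glia. The pieces were mucosal olfactory nerve (ON), taken beneath the olfactory epithelium, at E11.5 (4 libraries), E13.5 (7 libraries) and E16.5 (4 libraries); the olfactory nerve layer (ONL) around the olfactory bulb at E13.5 (5 libraries); the outer and the inner part of that layer at E16.5 (4 libraries each); and trigeminal nerve (TN) at E16.5 (3 libraries). All embryos carried the transgene and none was treated. The pieces held the target glia, which are olfactory ensheathing cells in olfactory nerve and Schwann cells in trigeminal nerve, together with whatever lay beside them, and outer and inner ONL were cut by position with no visible border. Because Sox10 fluorescence guided the cutting, Sox10 is used below as a reference and not as a finding. Pieces came from 4 embryos in each group, with 2 embryos for E11.5 ON and 3 for TN. Within E11.5 ON, within E13.5 ON and within E13.5 ONL, some pieces therefore come from the same embryo. Pieces of E13.5 ON and E13.5 ONL may also share embryos. The labels do not say which, and p-values that involve these groups are too small. The TN pieces were cut from the same sections as olfactory pieces, so regions of E16.5 also share embryos across groups, which the tests below do not take into account.

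Notch is a cell surface receptor that is cut when a Delta or Jagged ligand on a neighbouring cell binds it. Its freed inner part joins the DNA-binding protein Rbpj and a Maml co-activator in the nucleus and switches on target genes. Hes1, Hes5, Hey1, Hey2 and Heyl are such targets in many tissues. They encode basic helix-loop-helix repressors that hold back proneural genes, which drive cells to become neurons, and in this way keep cells as progenitors or glia. Hes6 is a relative that is found in neuronal precursors and counteracts Hes1. Nrarp is a small ankyrin repeat protein that is made on Notch signalling and dampens it. In developing nerve, Notch is known to favour the formation of Schwann cells and to restrain their myelination.

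The genes lie apart from each other on GRCm38 (GENCODE M21). Hes1 is at chr16:30064384-30067796 (+ strand), Hes5 at chr4:154960923-154962371 (+ strand), Hes6 at chr1:91411483-91414038 (- strand), Hey1 at chr3:8663359-8667256 (- strand), Hey2 at chr10:30832359-30842801 (- strand), Heyl at chr4:123233556-123249875 (+ strand) and Nrarp at chr2:25180758-25183339 (+ strand). The annotation places an antisense gene over Hes5 (Gm20421, at most 2 counts in any library) and another over Nrarp (Gm38287, 0 counts in every library). Promoters from the RefSeq table (GRCm38.p6) were given for Hes5, Hes6, Hey2 and Nrarp. Those of Hes5 and Hey2 are shown because both genes were higher in ONL than in ON and both promoters hold the core letters bound by Rbpj. The capitals mark TGGGAA or its reverse complement TTCCCA, 250 bases before to 10 after the start.
Hes5, chr4:154960673-154960932, + strand: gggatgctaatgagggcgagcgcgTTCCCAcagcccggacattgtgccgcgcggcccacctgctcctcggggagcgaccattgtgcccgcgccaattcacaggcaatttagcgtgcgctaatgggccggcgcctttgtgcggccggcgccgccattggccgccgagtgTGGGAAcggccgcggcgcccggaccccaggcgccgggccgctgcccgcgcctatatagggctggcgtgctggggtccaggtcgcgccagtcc
Hey2, chr10:30842774-30843033, - strand: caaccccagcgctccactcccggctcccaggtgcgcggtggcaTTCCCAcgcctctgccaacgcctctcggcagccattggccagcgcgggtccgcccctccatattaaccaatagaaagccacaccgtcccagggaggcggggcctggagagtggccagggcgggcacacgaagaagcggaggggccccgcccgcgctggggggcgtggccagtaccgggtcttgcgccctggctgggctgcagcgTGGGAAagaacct
The 4 marked copies start 226 and 82 bases before the start of Hes5, and 207 and 3 bases before that of Hey2. Each is part of the longer GTGGGAA (or TTCCCAC), so each promoter holds 2 copies of the longer motif. Of 32851 promoters of 300 bases in the table, 6.38% hold GTGGGAA on either strand and 25.6% hold TGGGAA, which every GTGGGAA contains. Neither was found in the 300 bases around the start of Nrarp or around either of the 2 starts of Hes6. These are matches of letters and not binding sites.

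Labels and groups have to be settled before the early stages can be read. The labels of 21 of the 31 libraries name the same group as the study's own table of group means, and those of 10 libraries, all E11.5 or E13.5, do not. Each mean in that table was rebuilt as an equal-weight average of libraries over 1698 genes: the E11.5 ON mean from 4 libraries labelled E13.5 ONL, the E13.5 ON mean from 6 labelled E13.5 ON and 1 labelled E13.5 ONL, and the E13.5 ONL mean from 4 labelled E11.5 ON and 1 labelled E13.5 ON. E11.5 ON, E13.5 ON and E13.5 ONL below mean these groups, and the number of members called by label stands beside each early comparison. The lists of other genes were counted in these groups and not by label. At E16.5 labels and means name the same libraries. Marker genes of forebrain neurons summed to between 903 and 1315 CPM (counts scaled to a common library size, with TMM factors) in the 5 libraries of E13.5 ONL, to between 61.2 and 93.6 CPM in the 7 of E13.5 ON and to between 100.1 and 175 CPM in the 4 of E11.5 ON. The 31 libraries held 3512627 to 36705535 counts, with the lowest total in E13.5 ONL. Sox10 was found in every library, at 39.9 to 712 CPM, and Schwann cell myelin markers (Mbp, Pmp22 and Egr2) summed to 2351 CPM or more in TN and to 479 CPM or less in every other library.

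**Figure D1:**
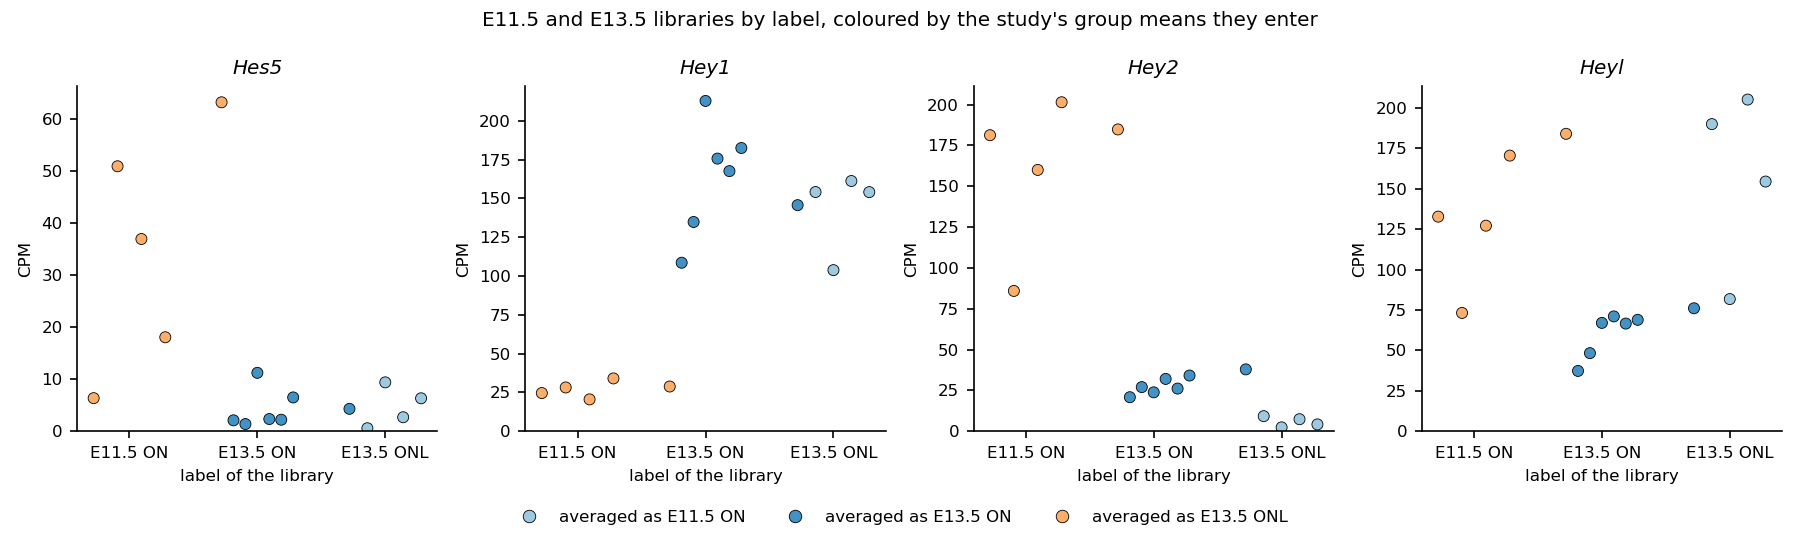
Levels (CPM) of 4 genes in the 16 libraries of E11.5 and E13.5, placed by their label and coloured by the group mean of the study that they enter. The 5 libraries averaged as E13.5 ONL sit between 85.9 and 201 CPM for Hey2 and between 20.5 and 34.1 CPM for Hey1, under whichever label they carry.

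Each of the 6 genes with appreciable counts had its own order over the 7 groups, and they fell into those highest in ONL (Hes5, Hey2 and Heyl) and those highest in ON (Hes1, Hes6 and Hey1). Genes can be compared with each other only per length, as CPM per kb of exon. On that scale the summed level of the 7 genes ranged from 110 ± 16.4 CPM per kb in TN (SD, n = 3) to 256 ± 31.8 in inner ONL (SD, n = 4). Heyl and Hey2 made up 40.4% ± 3.42 and 34.0% ± 3.19 of that sum in outer ONL (SD, n = 4). Hes6 made up 47.2% ± 13.3 in E16.5 ON (SD, n = 4) and 56.2% ± 9.42 in E13.5 ON (SD, n = 7), whereas Hey1 was the largest share in TN at 35.8% ± 3.18 (SD, n = 3). In E11.5 ON, Hes6 (30.7% ± 5.63) and Hey1 (29.5% ± 1.67) had like shares (SD, n = 4). Hes5 took 17.3% ± 9.89 of the sum in E13.5 ONL (SD, n = 5) and 0.504% ± 0.364 in TN (SD, n = 3).

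**Figure D2:**
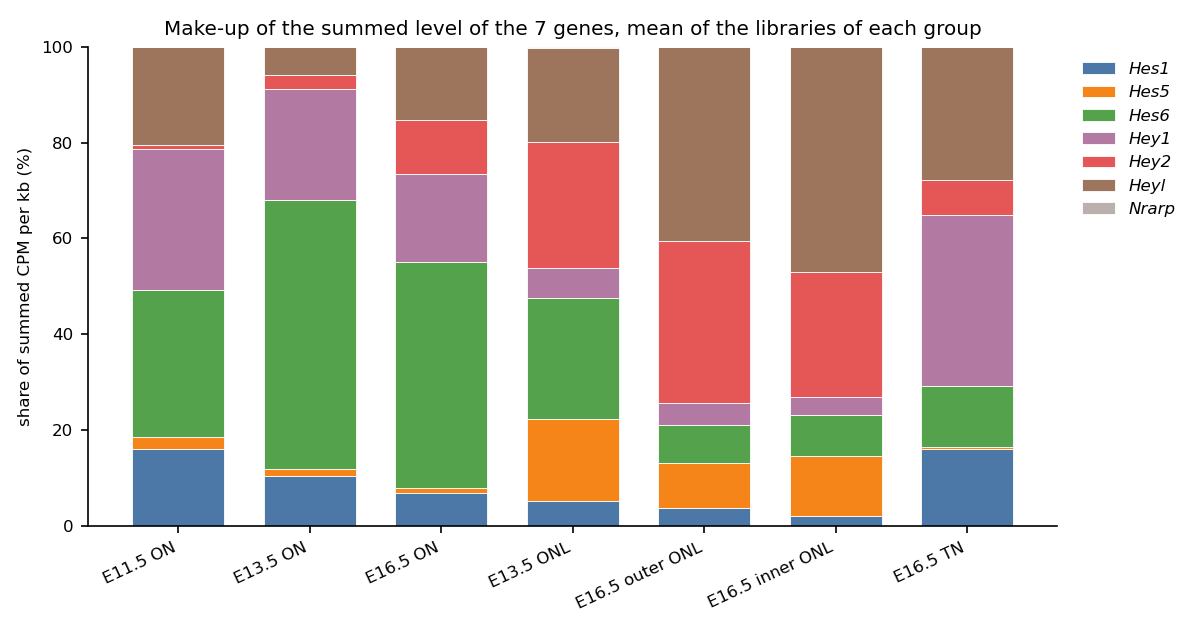
Share (%) of each gene in the summed level of the 7 genes per kb of exon, as the mean over the libraries of each group; bars start at 0 and Nrarp is too low to be seen. Heyl and Hey2 fill most of the bars of outer and inner ONL, Hes6 most of E13.5 ON, and Hey1 the largest part of TN.

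Hes5, a repressor used by neural and glial progenitors, had a higher mean in pieces of the nerve layer than in mucosal nerve at E13.5 and at E16.5. Its level was 35.0, 22.7, 30.3 and 35.2 CPM in the 4 outer ONL libraries and 40.6, 23.4, 62.0 and 51.5 CPM in the 4 inner ones. In E16.5 ON it was 3.16, 3.16, 1.76 and 1.77 CPM. The 3 TN libraries had 0.397, 0.469 and 1.40 CPM, below every ON library of that stage. At E13.5 the 5 ONL libraries spread widely, from 6.36 through 18.1, 36.9 and 50.9 to 63.2 CPM, and E13.5 ON had a median of 2.35 CPM (lowest 1.39, highest 11.2, n = 7). E11.5 ON had 0.583, 9.40, 2.70 and 6.34 CPM. The 3 ONL groups overlapped each other, so their order was not resolved, and outer ONL lay wholly above each ON group. The lowest E13.5 ONL library overlapped the highest of E13.5 ON and E11.5 ON.

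Hey2, a hairy-related repressor of the same family, rose in ON from stage to stage. The 4 outer ONL libraries had 463, 322, 384 and 324 CPM and the 4 inner ones 281, 309, 303 and 315 CPM, with no overlap between them. E16.5 ON had 85.6, 117, 80.6 and 56.4 CPM and TN 25.5, 47.2 and 41.2 CPM, again without overlap. In E13.5 ONL it was at 181, 85.9, 160, 201 and 185 CPM. It had a median of 27.0 CPM in E13.5 ON (lowest 20.9, highest 37.9) and stood at 9.25, 2.39, 7.39 and 4.2 CPM in E11.5 ON. The ON libraries of the 3 stages did not overlap, each stage being above the one before it.

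Heyl, another Hey repressor, had the highest level per length of the members in the E16.5 layer, at 96.7 CPM per kb in outer and 121 CPM per kb in inner ONL, with Hey2 next at 81.2 and 65.8 CPM per kb. It stood at 585, 382, 463 and 549 CPM in outer ONL and 841, 510, 583 and 542 CPM in inner ONL, and the 2 groups overlapped. The highest of all other libraries had 205 CPM. E16.5 ON had 113, 157, 145 and 92.5 CPM, TN 107, 204 and 161 CPM, and E13.5 ONL 133, 73.2, 127, 171 and 184 CPM. These 3 groups and E11.5 ON, with 190, 81.8, 205 and 155 CPM, overlapped throughout. E13.5 ON was lowest, with a median of 67.1 CPM (lowest 37.3, highest 76.1).

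Hey1, a relative known from blood vessels, ran the other way. In ONL it was low in each library, with 37.7, 29.6, 37.5 and 33.8 CPM in outer, 30.4, 28.6, 30.8 and 32.8 CPM in inner, and 24.6, 28.2, 20.5, 34.1 and 28.8 CPM at E13.5. E16.5 ON had 131, 79.1, 114 and 87.8 CPM. TN had 97.9, 158 and 132 CPM, E11.5 ON 154, 104, 161 and 154 CPM, and E13.5 ON a median of 168 CPM (lowest 109, highest 213). Every ON and TN library lay above every ONL library, and the ON and TN groups, taken in order of their means, overlapped their neighbours.

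Hes6, the neuronal relative that counteracts Hes1, peaked in E13.5 ON with a median of 198 CPM (lowest 146, highest 297). E16.5 ON spread from 70.5 through 140 and 180 to 214 CPM. The layer had less: 30.9, 33.8, 38.9 and 30.7 CPM in outer ONL and 45.1, 36.9, 40.4 and 35.4 CPM in inner ONL. E11.5 ON (63.0, 66.4, 100 and 99.2 CPM) and E13.5 ONL (33.8, 88.9, 63.5, 62.0 and 71.7 CPM) overlapped in between, and TN was lowest at 20.6, 27.5 and 27.1 CPM. The TN libraries lay below all others.

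Hes1, a Notch target in many tissues, spread widely within groups. E11.5 ON had 66.8, 52.2, 26.3 and 41.8 CPM and E13.5 ON a median of 37.8 CPM (lowest 26.2, highest 78.5). E16.5 ON had 17.1, 26.5, 19.0 and 28.4 CPM, TN 50, 22.7 and 28 CPM and outer ONL 12.3, 22.3, 16.9 and 18.2 CPM. E13.5 ONL (4.70, 12.8, 21.2, 9.24 and 28 CPM) and inner ONL (6.12, 6.77, 14.5 and 13.4 CPM) had the lowest means. No 2 neighbours in the order of the 7 means were free of overlap. Nrarp, the feedback inhibitor, stayed below 1.2 CPM in all 31 libraries, with at most 31 counts in any and 0 counts in 4 of them, so that differences between groups were not detectable at this depth.

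**Figure D3:**
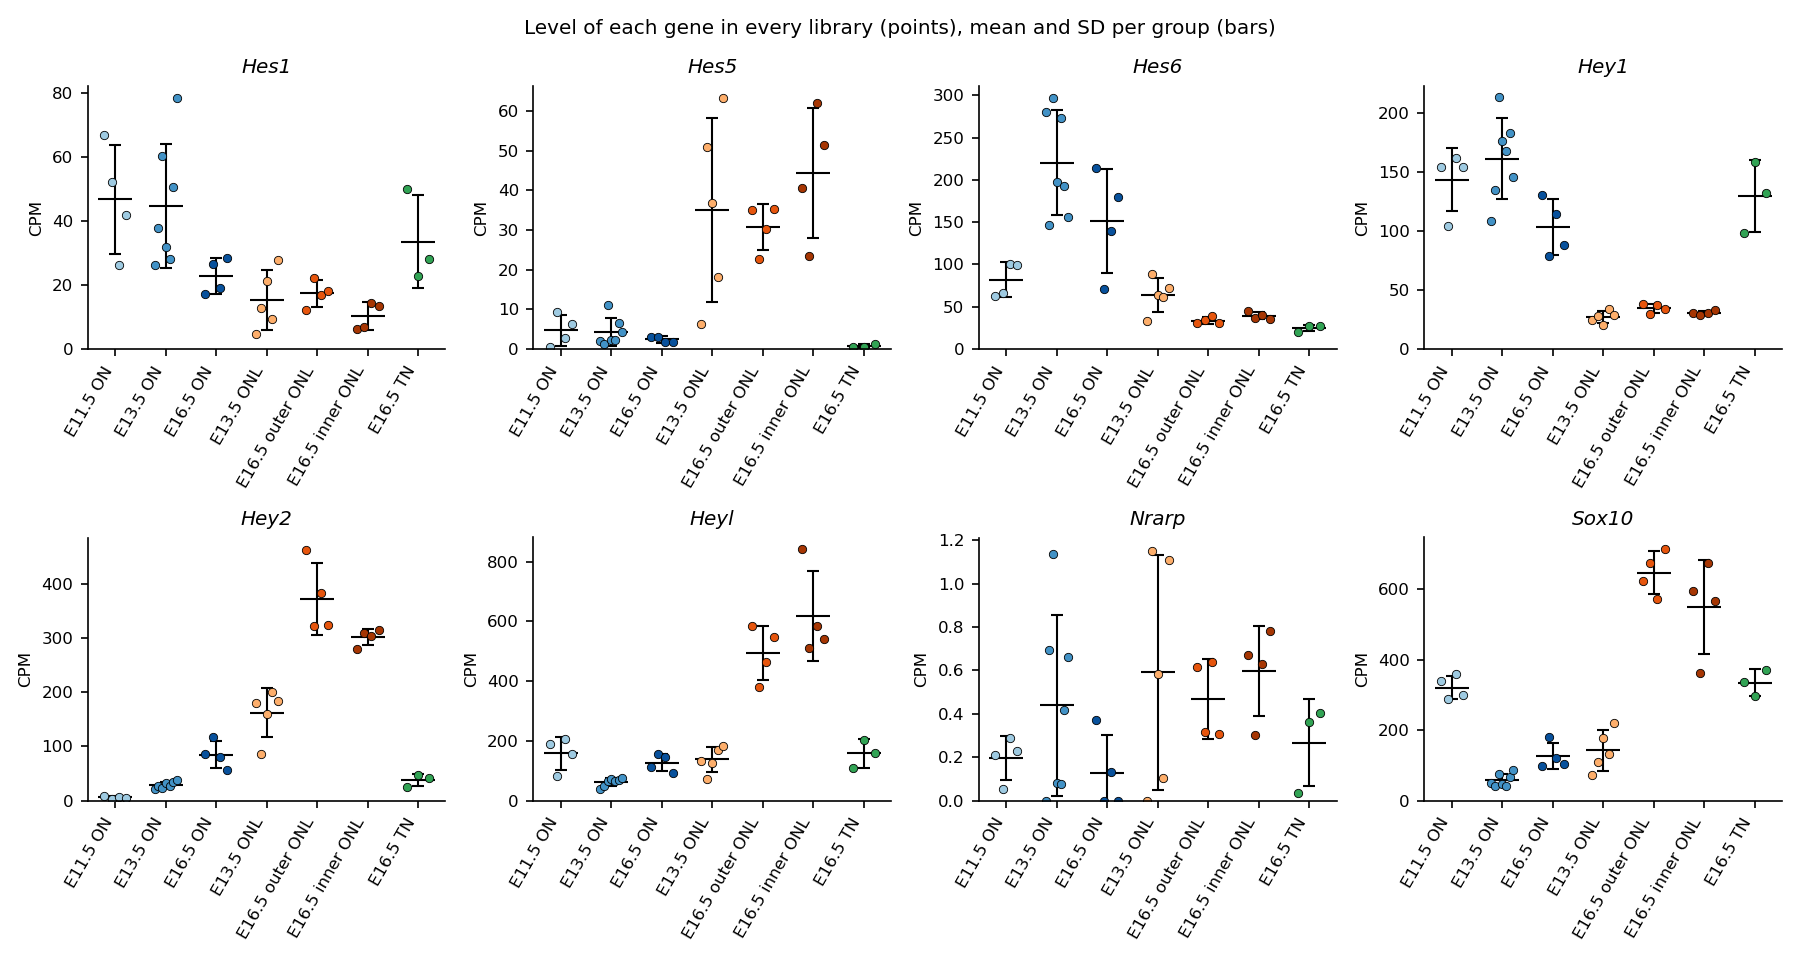
Level (CPM) of the 7 genes and of Sox10 in each library, grouped by piece and stage; points are libraries, the wide bar is the mean and the whiskers are the SD. Hes5, Hey2 and Heyl are highest in orange groups (ONL), Hes1, Hes6 and Hey1 in blue groups (ON), and each Hey1 point of ONL lies under 38 CPM.

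The comparison of outer ONL with mucosal nerve at E16.5 sets pieces from the bulb surface against pieces from the mucosa, each holding glia and adjoining tissue. Of the 7 genes, 5 were called at an adjusted p under 0.05 by edgeR's quasi-likelihood test, against 22% of all genes tested. Hes5 was 12.5-fold higher in outer ONL (log2 fold change 3.64 ± 0.68 SE, adjusted p = 0.000158), Hey2 higher by 2.14 ± 0.29 (adjusted p = 1.82e-06) and Heyl by 1.96 ± 0.28 (adjusted p = 3.20e-06). Hes6 was lower, with a log2 fold change of -2.17 ± 0.28 (adjusted p = 6.38e-07), as was Hey1 at -1.57 ± 0.19 (adjusted p = 3.63e-07). The libraries of the 2 groups did not overlap for any of these 5 genes. The share of all genes tested that lack overlap was not counted. Hes1 differed by -0.39 ± 0.40 (adjusted p = 0.560) and Nrarp by 1.85 ± 1.06 (adjusted p = 0.232). In bulk pieces, more glia and more RNA per glial cell cannot be told apart, and the glial reference itself differed: Sox10 was at 572 to 712 CPM in outer ONL and 97.5 to 180 CPM in E16.5 ON.

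Within the E16.5 layer, 0 of the 7 genes were called between inner and outer ONL by edgeR, 0 had an unadjusted p under 0.05 and DESeq2 called 0, against 14.2% of all genes tested. The fitted differences, inner minus outer, were small: 0.32 ± 0.27 for Heyl, 0.53 ± 0.59 for Hes5, 0.23 ± 0.27 for Hes6, -0.18 ± 0.19 for Hey1, -0.30 ± 0.28 for Hey2 and -0.77 ± 0.41 for Hes1 (log2 ± SE). The lowest adjusted p was that of Hes1, at 0.254. For Hey2 the 2 groups did not overlap, with 322 CPM as the lowest outer and 315 CPM as the highest inner library.

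Against trigeminal nerve, which holds Schwann cells, 4 of the 7 genes were called in outer ONL, with 25.8% of all genes as background. Hes5 differed most, by 5.34 ± 0.84 (adjusted p = 1.14e-05), followed by Hey2 at 3.30 ± 0.34 (adjusted p = 1.04e-08) and Heyl at 1.65 ± 0.30 (adjusted p = 0.000102), and Hey1 was lower at -1.90 ± 0.20 (adjusted p = 1.97e-08). Hes6 (0.42 ± 0.29, adjusted p = 0.321) and Hes1 (-0.95 ± 0.42, adjusted p = 0.103) were not called, although Hes1 passed at 0.0349 when E16.5 was fitted without the earlier stages. In the comparison of E16.5 ON with TN, 2 of the 7 were called, a share near the 23.6% of all genes called. The members called were Hes6, higher in ON by 2.59 ± 0.31 (adjusted p = 2.40e-07), and Hey2, higher by 1.16 ± 0.31 (adjusted p = 0.00644). Hey2 had an adjusted p of 0.0551 without replicate 1 of TN and of 0.282 when the early libraries in the same fit were grouped by their labels. Hes5 was higher by 1.70 ± 0.77 (adjusted p = 0.114), and it passed at 0.00471 when E16.5 was fitted without the earlier stages. Hey1 (-0.33 ± 0.20, adjusted p = 0.258) and Heyl (-0.31 ± 0.29, adjusted p = 0.485) did not pass. Both comparisons share the TN libraries.

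At E13.5, the same split between layer and mucosal nerve took in 6 of the 7 genes, with 31.6% of all genes called (pieces share embryos). Hes5 was higher in ONL by 3.01 ± 0.52 (adjusted p = 2.68e-05), Hey2 by 2.49 ± 0.24 (adjusted p = 1.10e-09) and Heyl by 1.14 ± 0.22 (adjusted p = 0.000142). Hey1 was lower at -2.56 ± 0.17 (adjusted p = 1.42e-12), Hes6 at -1.78 ± 0.23 (adjusted p = 4.22e-07) and Hes1 at -1.52 ± 0.35 (adjusted p = 0.000893). The 5 ONL and 7 ON libraries did not overlap for Hey1, Hes6 and Hey2, and the share of all genes without overlap was not counted here either. Grouped by the labels, 3 of the 7 were called, with 17.6% as background: Heyl at 0.86 ± 0.30 (adjusted p = 0.0467) and Hes6 at -1.11 ± 0.29 (adjusted p = 0.0114) in the same direction, and Hey2 reversed at -2.07 ± 0.57 (adjusted p = 0.0149). By label Hey1 was at 144 ± 23.0 CPM in E13.5 ONL (SD, n = 5) and 144 ± 61.1 CPM in E13.5 ON (SD, n = 7).

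Whether the step between layer and mucosal nerve changed from E13.5 to E16.5 was tested as an interaction. In it 1 of the 7 genes was called, a share near the 12.4% of all genes called. The member called was Hey1, whose ONL-to-ON difference was -2.56 at E13.5 and -1.57 at E16.5, a change of 0.99 ± 0.25 (adjusted p = 0.00658). The changes of Hes1 (1.13 ± 0.52, adjusted p = 0.175) and Heyl (0.82 ± 0.35, adjusted p = 0.137) did not pass, nor did those of Hes5, Hes6, Hey2 and Nrarp. By the labels 3 of the 7 were called (12.6% as background), namely Hes5 at 5.11 ± 1.24, Hey2 at 4.21 ± 0.87 and Hey1 at -1.56 ± 0.41, the last in the opposite direction. The E13.5 side of each difference rests on pieces that share embryos.

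**Figure D4:**
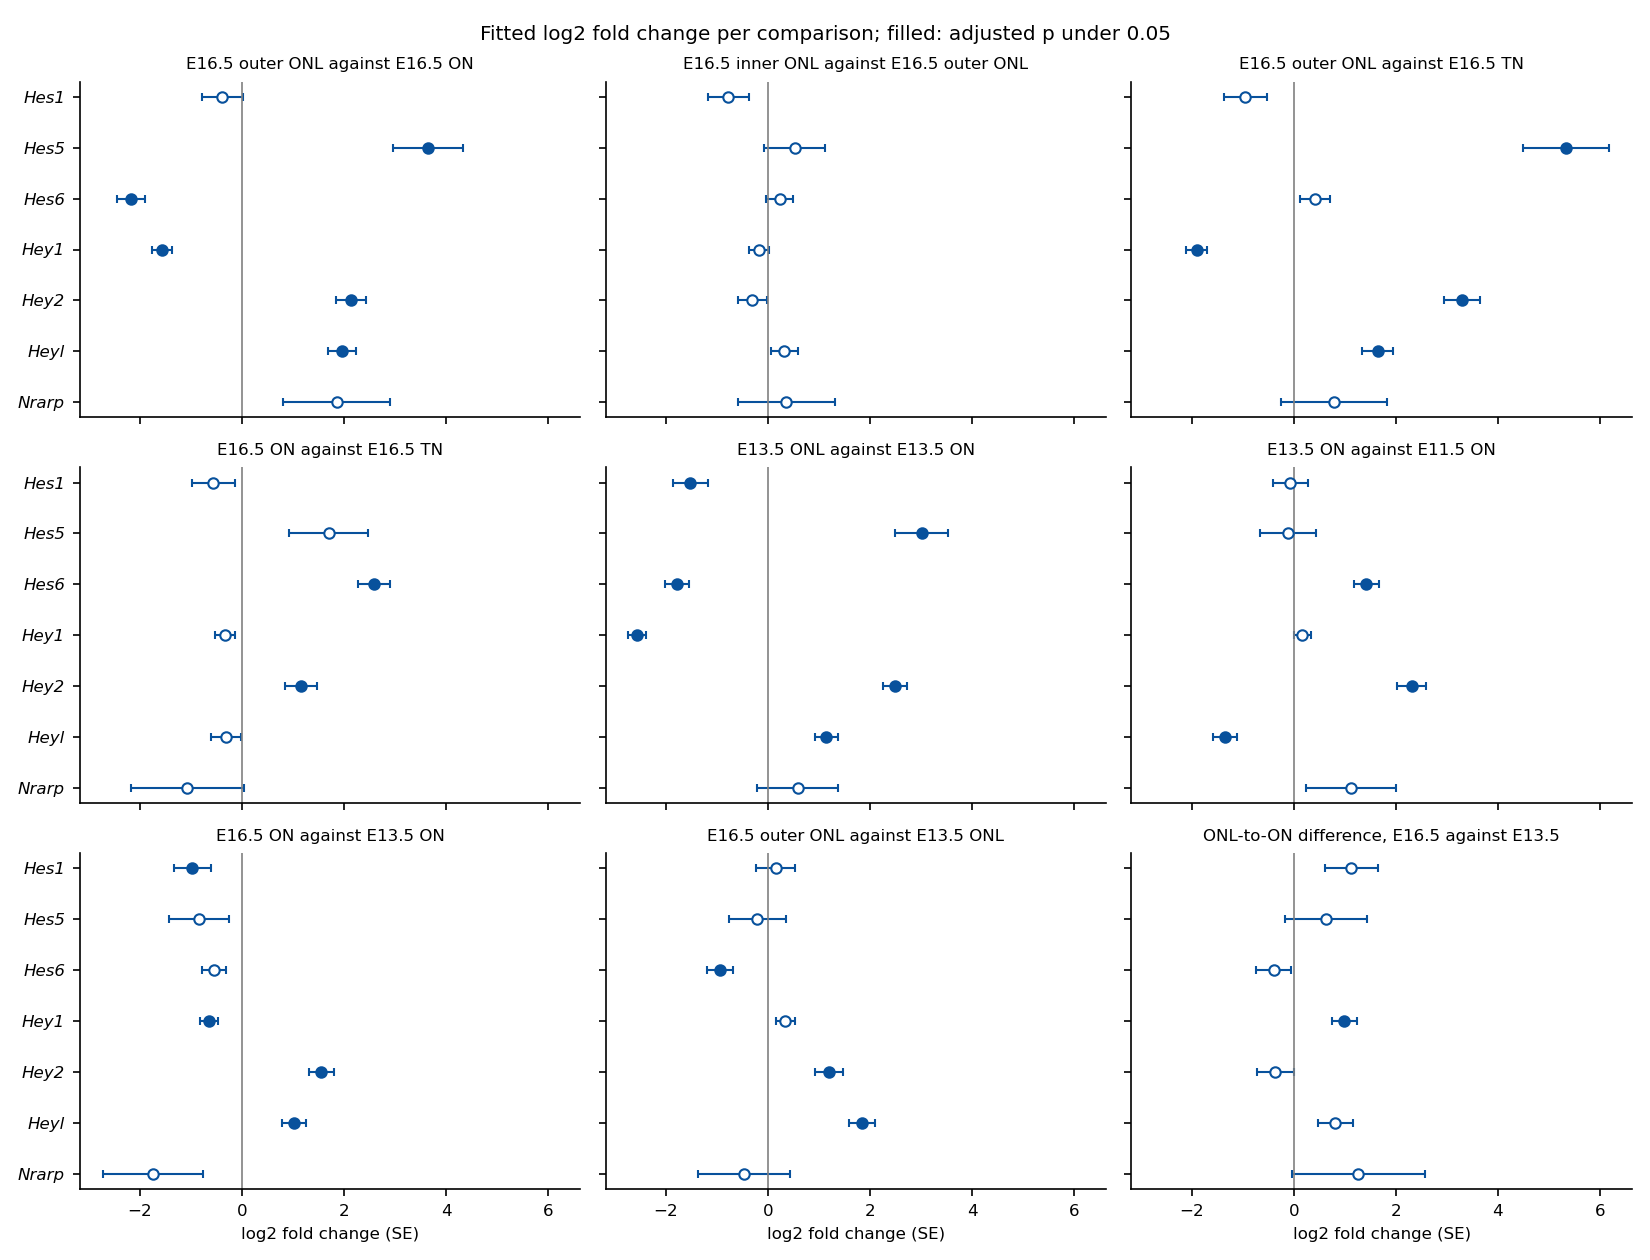
Fitted log2 fold change (x axis, whiskers are the SE) of the 7 genes in the 9 comparisons, with early libraries in the groups used in the text; filled points have an adjusted p under 0.05. Hes5, Hey2 and Heyl lie to the right of 0 and Hes6 and Hey1 to the left in ONL against ON at both stages, and no point is filled for inner against outer ONL.

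Over stage in the mucosal nerve, the members moved in different directions. From E11.5 to E13.5, 3 of the 7 were called, a share near the 36.6% of all genes called. Hey2 rose by 2.31 ± 0.28 (adjusted p = 2.20e-07), Hes6 rose by 1.42 ± 0.25 (adjusted p = 4.38e-05) and Heyl fell, at -1.34 ± 0.23 (adjusted p = 4.03e-05). Hey1 (0.17 ± 0.17), Hes1 (-0.06 ± 0.35) and Hes5 (-0.11 ± 0.55) had adjusted p of 0.459 or more. Sox10 went from between 287 and 358 CPM to between 39.9 and 85.4 CPM over the same step. By the labels 4 of the 7 were called, with 17.4% as background, among them Hey1 at 2.42 ± 0.32 and Hes1 at 1.61 ± 0.36, and Hey2 was reversed at -1.65 ± 0.55 (adjusted p = 0.0378). From E13.5 to E16.5, 4 of the 7 were called with 28.8% as background. Hey2 rose again, by 1.56 ± 0.25 (adjusted p = 2.04e-05), and Heyl rose by 1.03 ± 0.23 (adjusted p = 0.00133), while Hey1 fell at -0.65 ± 0.17 (adjusted p = 0.00469) and Hes1 at -0.98 ± 0.36 (adjusted p = 0.0430). The call of Hes1 was lost on leaving out any of 7 single libraries, with adjusted p up to 0.149. By the labels 1 of the 7 was called over that step, Hes5 at -2.39 ± 0.88, with 25% as background. In all these tests, some pieces of the same early group share an embryo.

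In the nerve layer, 3 of the 7 genes were called between E13.5 ONL and E16.5 outer ONL, a share near the 41.9% of all genes called. Heyl rose by 1.85 ± 0.26 (adjusted p = 1.03e-06) and Hey2 by 1.2 ± 0.27 (adjusted p = 0.000503), and Hes6 fell at -0.94 ± 0.26 (adjusted p = 0.00411). Hes5 (-0.21 ± 0.56), Hes1 (0.15 ± 0.38) and Hey1 (0.34 ± 0.18, adjusted p = 0.133) did not pass. By the labels 6 of the 7 were called with 35.1% as background, Hey2 at 4.97 ± 0.68 and Hey1, reversed, at -2.05 ± 0.32. The E13.5 pieces share embryos.

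Set against Sox10 in the same library, as the log2 ratio of the CPM of each gene to that of Sox10, the differences between groups took other sizes. This was tested by exact two-sided permutation of libraries for all 7 genes in 8 comparisons, 56 tests of which 38 had a raw p under 0.05. That count takes in Nrarp, which is limited by depth, and comparisons in which Sox10 itself differed. In E13.5 against E11.5 ON all 7 genes had an exact permutation p of 0.00303, though Hes1, Hes5, Hey1 and Nrarp were not called in CPM. The mean of Sox10 fell from 321 to 57.4 CPM over that step, which raises every ratio. These counts therefore do not single out the members, and the ratios were not computed for all other genes. With 4 libraries against 4 the smallest p possible is 0.0286. Heyl had mean log2 ratios of 0.14 ± 0.42 in E13.5 ON (SD, n = 7), 0.03 ± 0.24 in E16.5 ON (SD, n = 4), -0.01 ± 0.63 in E13.5 ONL (SD, n = 5), -0.40 ± 0.31 in outer ONL and 0.18 ± 0.37 in inner ONL (SD, n = 4 each). Outer ONL and E16.5 ON differed in Heyl by -0.42 (exact permutation p = 0.0857) and in Hey2 by -0.23 (exact permutation p = 0.343), so no difference was shown for either per unit of Sox10. Without replicate 1 of outer ONL the difference in Heyl was -0.53 (exact permutation p = 0.0286). With Sox10 and Erbb3 summed as the reference, chosen after seeing the data, these differences were -0.097 (exact permutation p = 0.629) and 0.093 (exact permutation p = 0.657), the latter with its sign turned. Hes5 differed by 1.03 (exact permutation p = 0.0571), by 1.25 without replicate 1 of E16.5 ON (exact permutation p = 0.0286), and by 1.36 (exact permutation p = 0.0286) against the summed reference. The differences were -4.44 for Hes6, -3.93 for Hey1 and -2.77 for Hes1, each with no overlap and an exact permutation p of 0.0286. Sox10 itself was higher in outer ONL by 2.36 ± 0.27 on the log2 scale, which lowers every ratio there by about that much, and Hes1 in CPM was not called.

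Trigeminal nerve and E11.5 mucosal nerve were low in Hey2 per unit of Sox10. The ratio was -3.16 ± 0.53 in TN (SD, n = 3) and -5.81 ± 0.66 in E11.5 ON (SD, n = 4), against -0.57 ± 0.28 in E16.5 ON (SD, n = 4) and -0.95 ± 0.41 in E13.5 ON (SD, n = 7). E16.5 ON exceeded TN by 2.60 (exact permutation p = 0.0286, the smallest that 4 against 3 libraries can give), and E13.5 ON exceeded E11.5 ON by 4.87 (exact permutation p = 0.00303, also the smallest possible). The mean of Sox10 was 321 CPM in E11.5 ON and 57.4 CPM in E13.5 ON, which raises every ratio alike. Of the members Hey2 and Hes6 also rose in CPM over this step. Sox10 was also lower in E16.5 ON than in TN (126 against 335 CPM), which raises every ratio in ON. Hes1, Hes5, Hes6 and Heyl likewise exceeded TN there (exact permutation p = 0.0286 each), so this was not particular to Hey2. In CPM, Hey2 was higher in E16.5 ON than in TN by 1.16 ± 0.31. Hes5 per unit of Sox10 was higher in inner than in outer ONL by 0.72 with no overlap (exact permutation p = 0.0286), but p was 0.0571 without replicate 2 of outer ONL. It was also higher in E13.5 ONL than in E16.5 outer ONL, where the difference of later minus earlier was -2.11 (exact permutation p = 0.0159). The mean of Sox10 was 142 CPM in E13.5 ONL and 646 CPM in outer ONL, which lowers every ratio in outer ONL. In CPM, Hes5 was not called over that step (-0.21 ± 0.56). Some pieces of the same E11.5 or E13.5 group share an embryo. By the labels the sign turned for E13.5 against E11.5 ON in Hey2 (-1.18) and Hes5 (-1.08) and for outer ONL against E13.5 ONL in Hes5 (1.53).

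**Figure D5:**
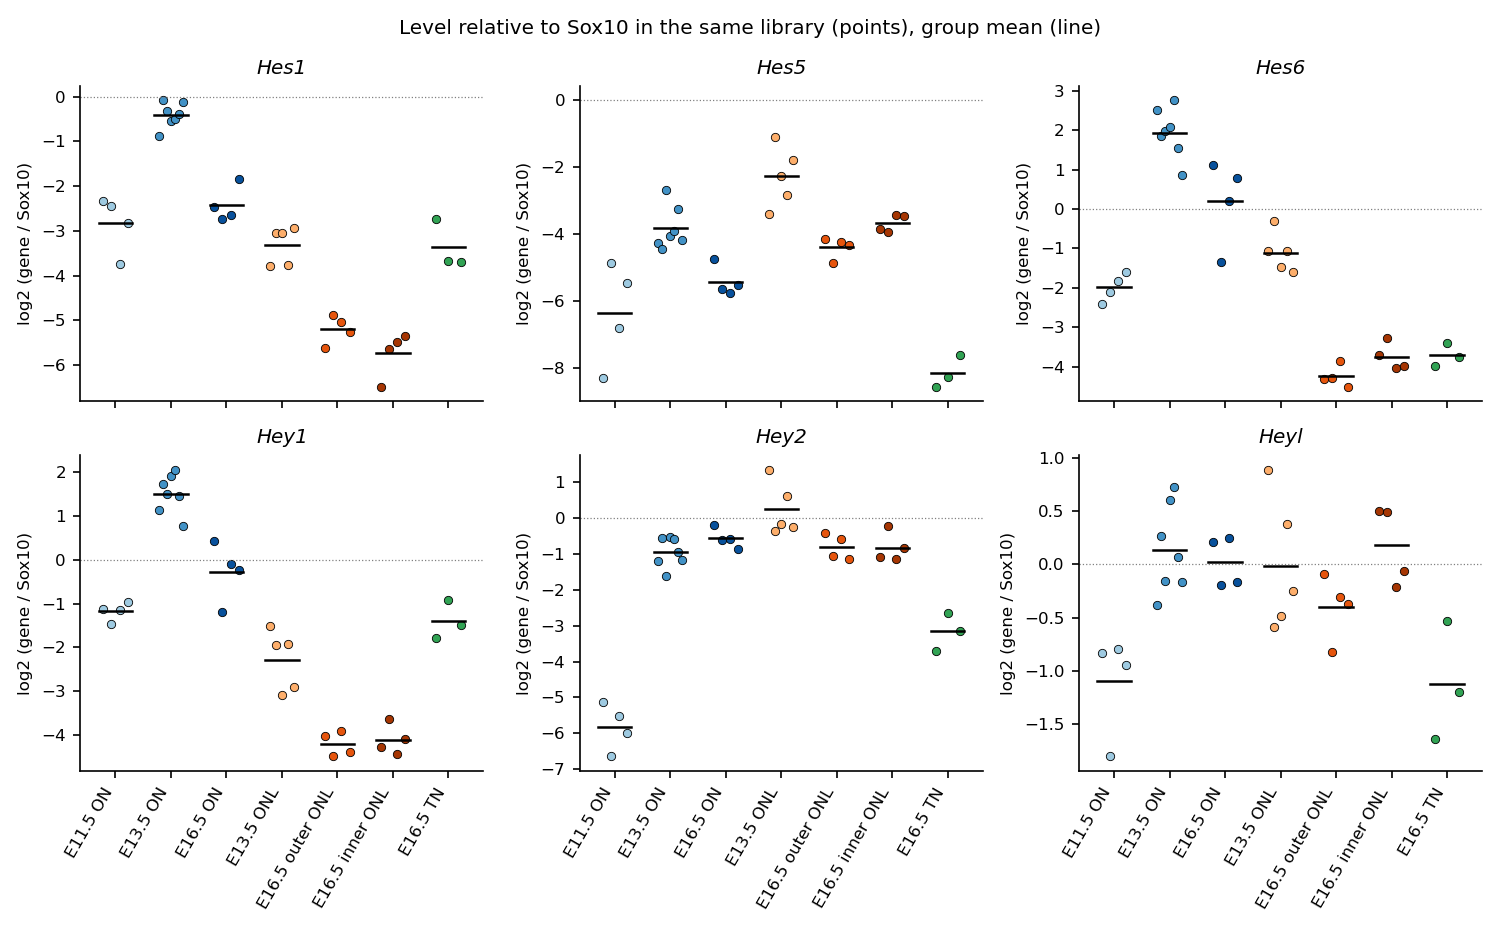
log2 ratio of each gene to Sox10 in the same library (y axis, pseudocount 0.5 CPM); points are libraries and lines group means. Heyl means lie between -0.40 and 0.18 in the 5 later olfactory groups, Hey2 is far below 0 in E11.5 ON and TN, and Hes6, Hey1 and Hes1 are highest in E13.5 ON and lowest in outer or inner ONL.

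The rest of the pathway, taken as 40 listed genes of which 36 were tested, gave 5 higher and 9 lower between outer ONL and E16.5 ON (22% of all genes called; median log2 fold change -0.31, against 0.01 over all genes tested). Of the 4 receptors, Notch2 was higher in outer ONL by 1.12 ± 0.19 and Notch1 by 0.51 ± 0.19, and Notch3 and Notch4 did not pass. Of the 7 ligands 5 were lower and none higher, including Jag1 at -1.34 ± 0.32, Jag2 at -1.28 ± 0.33 and Dll4, the ligand of vessels, at -1.10 ± 0.31. In the nuclear complex Maml2 was higher (38.6 against 19.2 CPM, adjusted p = 7.12e-05), and Rbpj, Maml1 and Maml3 did not pass. Among the 19 modifiers, 2 were higher and 3 lower. Dtx4, a Deltex ubiquitin ligase, was higher by 1.93 ± 0.17 (185 against 48.6 CPM), and Mfng, a Fringe glycosyltransferase that alters how Notch responds to ligands, was lower at -2.16 ± 0.42. Numb, an inhibitor of Notch, was higher by 0.83 ± 0.17.

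Between outer ONL and TN, 4 of the 36 were higher and 10 lower (25.8% of all genes called). The largest ligand difference was Dlk1, an atypical ligand, at 147 CPM in outer ONL and 2222 CPM in TN (-3.92 ± 0.38). By in situ hybridization, the paper placed Dlk1 in mesenchyme around the ONL and/or nerve fascicles. Whether mesenchyme carried this difference was not tested. Notch2 was again higher, by 1.56 ± 0.22, and Notch3, a receptor of vessel walls, lower at -1.67 ± 0.27. Between E16.5 ON and TN, 4 were higher and 7 lower (23.6% of all genes called). Inner against outer ONL gave 6 higher and 0 lower (14.2% of all genes called), among them the ligands Dll1 (1.61 ± 0.43), Dll3 and Dlk2, and Dtx1 (1.69 ± 0.36). At E13.5, ONL against ON gave 5 higher and 10 lower (31.6% of all genes called), with Dll1 higher by 2.03 ± 0.33 and Notch1 lower at -0.99 ± 0.16. From E11.5 to E13.5 in ON, 11 rose and 2 fell, a share near the 36.6% of all genes called, among them Notch2 (1.74 ± 0.18), Notch1 (1.48 ± 0.17) and Rbpj (0.99 ± 0.18). From E13.5 to E16.5 in ON, 6 rose and 5 fell (28.8% of all genes called), and from E13.5 ONL to outer ONL 14 rose and 8 fell (41.9% of all genes called). The list as a whole was not tested against other genes. The early comparisons rest on pieces that share embryos.

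Proneural genes, which Hes proteins repress, and Id genes, whose products bind the partners of proneural proteins, were followed as 8 and 4 listed genes. Of the 6 proneural genes tested, Neurod1 (-4.53 ± 0.56) and Neurog1 (-4.83 ± 0.89) were lower and Neurog2 (1.41 against 0.0155 CPM) higher in outer ONL than in E16.5 ON (22% of all genes called). Of the 4 Id genes, Id1, Id3 and Id4 were lower there. Against TN, 4 proneural genes were higher and 0 lower both in outer ONL (25.8% of all genes called) and in E16.5 ON (23.6%). Neurod1 was at 58.1 CPM in E16.5 ON and 0.279 CPM in TN. Levels in outer ONL and TN were low: Neurog1, Neurod1 and Insm1 summed to 0.537 to 8.86 CPM and 0.144 to 0.830 CPM. At E13.5, 3 proneural genes were higher and 2 lower in ONL than in ON (31.6% of all genes called). In ON from E11.5 to E13.5, the step at which Hes6 rose, 3 proneural genes rose and 1 fell (36.6% of all genes called). Those that rose included Neurod1 (14.2 to 133 CPM) and Neurog1 (6.26 to 41.0 CPM). Neurog1 and Neurod1 also stand in the list of epithelial progenitor markers below, and Neurod6 in that of forebrain neurons.

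Markers of neighbouring cells moved with several of these groups, and their part in the results was not tested. The 3 markers of olfactory epithelium progenitors (Neurog1, Neurod1 and Insm1), all above the floor of 3 counts in ON, summed to 137 to 320.4 CPM in E13.5 ON, 38.2 to 158 CPM in E16.5 ON and 27.6 to 40.0 CPM in E11.5 ON, and to 0.537 to 8.86 CPM in outer ONL. Hes6 was likewise high in ON and low in outer ONL. In E13.5 ONL these markers summed to 55.0 to 110.3 CPM. The 5 epithelial markers summed to 138 to 468 CPM in E16.5 ON and 5.25 to 9.42 CPM in outer ONL, where Krt5 was at the floor. Beside Hes5, the 5 radial glia markers, several of which nerve glia also express, summed to 292 to 404 CPM in outer ONL, 395 to 489 CPM in inner ONL, 189 to 361 CPM in E13.5 ONL and 55.1 to 94.1 CPM in E16.5 ON. Between outer ONL and E16.5 ON 2 of the 5 were higher and 2 lower (median log2 fold change -1.37), and Slc1a3, also made by glia, carried the sum (307 against 25.4 CPM) while Sox2 was at 0.430 against 4.72 CPM. The 5 markers were at 195 to 256 CPM in TN. The 7 markers of bulb and forebrain neurons were at 9.05 to 150 CPM in outer ONL and 410 to 866 CPM in inner ONL. Inner minus outer, the log2 difference of Hes5 was 0.53 ± 0.59 SE in CPM (not called) and 0.72 per unit of Sox10. The 7 markers summed to 903 to 1315 CPM in E13.5 ONL and 61.2 to 93.6 CPM in E13.5 ON, with 6 higher and 0 lower in ONL. The mean of Hes5 was also higher in E13.5 ONL. Whether bulb or forebrain tissue carried Hes5 was not tested. Of 7 olfactory sensory neuron markers, 2 were higher and 1 lower in inner than in outer ONL (median -0.74): Gap43 (988 against 156 CPM) and Stmn2 (810.1 against 131 CPM) were higher and Gng8 (5.19 against 12.2 CPM) lower.

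Vessels and connective tissue are other known sites of Hey gene expression. The 7 endothelial markers summed to 578 to 1022 CPM in E16.5 ON, 497 to 828 CPM in outer ONL and 638 to 1088 CPM in TN. The 8 mural cell markers summed to 836 to 3260 CPM in E16.5 ON and 291 to 536 CPM in outer ONL. Heyl and Hey2 were higher in outer ONL, and a vessel source of either gene was not tested. The 8 mesenchyme markers summed to 9552 to 16190 CPM in E16.5 ON, 5732 to 11010 CPM in outer ONL, 921 to 2168 CPM in inner ONL and 23488 to 27627 CPM in TN. Hey1 was at 28.6 to 32.8 CPM in inner and 29.6 to 37.7 CPM in outer ONL. It was at 79.1 to 131 CPM in E16.5 ON and 97.9 to 158 CPM in TN, and a mesenchyme source was not tested. The 5 glial markers summed to 14992 CPM or more in outer and inner ONL, 1304 to 3184 CPM in E16.5 ON and 668 to 734 CPM in TN. Most of that sum was Fabp7 (18925 CPM in outer ONL, 1600.1 CPM in E16.5 ON and 82.6 CPM in TN). Between E16.5 ON and TN 1 of the 5 was higher and 2 were lower, Sox10 (126 against 335 CPM) and Erbb3 (85.4 against 205 CPM). Sustentacular markers were highest in E16.5 ON at 281 to 664 CPM. Macrophage (132 to 204 CPM) and red cell markers (2676 to 8001 CPM) in outer ONL compared with 183 to 381 and 2612 to 9649 CPM in E16.5 ON.

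The genes whose log2 levels ran most like each member over the 31 libraries were sought among 12289 genes with a mean of at least 10 CPM in some group. The libraries fall into 7 groups that share tissue, so the values describe likeness of group pattern. Hey2 was closest to Tnfrsf19 and Cd200 (Pearson r = 0.956 for both) and also had Npy, a neuropeptide, among its nearest 5 (0.932). Heyl was nearest to Bcar3 (0.959) and Slco2b1 (0.947), Hey1 to Wnt5a, a secreted Wnt ligand (0.932), Hes6 to Rnf182 (0.938) and Abcg1 (0.925), Hes5 to Mir9-3hg (0.907), Adgrb1 (0.899) and Sp5 (0.897), and Hes1 to Fzd2, a Wnt receptor (0.895). Nrarp had no gene above 0.784, with Ei24. Among the members, the highest was Hes1 with Hey1 (0.738) and the lowest Hes5 with Hey1 (-0.799). Heyl ran closest to Sox10 (0.878) and Hes6 opposite to it (-0.803).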

How the data were processed

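For 31 libraries the authors deposited whole-number read counts by gene; the submitters' processing notes name TopHat2 2.1.0, HTSeq and the mm10 build. The cDNA was amplified and the kit does not mark strand, so a gene and its antisense partner cannot be told apart. The deposited counts were used as they stand, and 1 row without a gene identifier was left out. Symbols came from GENCODE M21. Counts were scaled by TMM, filtered by filterByExpr and tested in 1 fit of all libraries with edgeR 4.0.16 (quasi-likelihood, robust; R 4.3.3), with Benjamini-Hochberg adjustment over 19332 genes and calls at 0.05. DESeq2 1.42.0, other scalings, filters and sample sets were alternatives. CPM per kb used the union of exons. Ratios to Sox10 had a pseudocount of 0.5 CPM and exact permutation tests (SciPy 1.17.1). The count test was tried on simulated counts. The members and lists were chosen with earlier results of these data known. Named were all 7 members, called list genes (at most 4 per list and comparison, by adjusted p) and the 5 genes most like each member; medians of lists stand in for tests. Early libraries were grouped as in the study's group means, which were rebuilt by least squares, and by label as an alternative. Whether equal replicate numbers mark 1 embryo is not stated. Residuals of same-number E16.5 ON and outer ONL libraries correlated at 0.158 to 0.347. Other pairs of these 2 groups ran from -0.280 to 0.270, and the ranges overlap, so pairing was not shown. Among the other E16.5 groups, some same-number libraries correlated negatively. With 3 to 7 pieces per group, p-values measure the spread between pieces. Some listed genes, and 1 other choice of glial reference, are not reported here; lists were summed and counted without those genes.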

Additional observations from a re-analysis of the deposited data

Results flagged for a closer look

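Hey1 in E11.5 ON was 104 CPM in the library labelled E13.5 ONL replicate 3 and 154 to 161 CPM in the other 3 libraries of that group, a gap above Dixon's 95% limit. It was the only such value among 42 sets of 4 to 7 libraries tested, and chance flags about 1 in 20. The ONL-to-ON difference of Hey1 changed by 0.99 on the log2 scale between E13.5 and E16.5, by the interaction term of the edgeR fit (adjusted p = 0.00658), and by -1.56 when the early libraries were grouped by their labels.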

How the results depend on the processing

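Every value here is a log2 difference unless called a count. DESeq2 and upper quartile scaling changed none of 63 calls of members, and the stricter filter none of 54 (Nrarp was not kept). The call of Hes1 between E16.5 ON and E13.5 ON was lost with DESeq2 size factors (adjusted p = 0.0544), total count scaling (0.0504) and no filter (0.0938); the cause was not tested. Grouping by the labels moved the number of members called to 1 for E16.5 ON against TN, 3 for E13.5 ONL against ON, 1 for E16.5 against E13.5 ON, 6 for outer ONL against E13.5 ONL and 3 for the interaction. All genes called went from 6107 to 3404 for E13.5 ONL against ON, from 7075 to 3362 for E13.5 against E11.5 ON and from 2740 to 1644 for inner against outer ONL. By the labels the sign turned in E13.5 ONL against ON for Hes1 (0.50), Hes5 (-1.47), Hey2 (-2.07) and Nrarp (-0.88), in E13.5 against E11.5 ON for Hes1 (1.61), Hey2 (-1.65) and Nrarp (-0.013), in outer ONL against E13.5 ONL for Hes1 (-1.61), Hes5 (2.72), Hey1 (-2.05) and Nrarp (0.76), and in the interaction for Hes1 (-0.89), Hey1 (-1.56) and Hey2 (4.21). Relative to Sox10, labels turned E13.5 ONL against ON for Hes5 (-2.44) and Hey2 (-4.07), E13.5 against E11.5 ON for Hes5 (-1.08) and Hey2 (-1.18), and outer ONL against E13.5 ONL for Hes5 (1.53), Hey2 (4.08) and Heyl (0.51). With Sox10 and Erbb3 summed as the reference, chosen after seeing the data, the sign turned for Hey2 in outer ONL against E16.5 ON (0.093) and in inner against outer ONL (0.067), and for Heyl in E13.5 ONL against ON (0.020), none of which had an exact permutation p under 0.05 either way. Against it Hes5 in outer ONL against E16.5 ON (1.36), Heyl (0.67), Hes6 (0.59) and Nrarp (0.53) in inner against outer ONL and Heyl in outer ONL against TN (1.00) reached an exact permutation p of 0.0286, and Hes1 in ON against TN lost it (0.0857). Leaving out 1 library at a time left 1 to 2 members called for E16.5 ON against TN. It turned the sign of values that were not called: Hes1 (-0.044 to 0.49) and Hes5 (-0.46 to 0.11) in outer ONL against E13.5 ONL, Hes1 (-0.26 to 0.16) and Hes5 (-0.52 to 0.46) in E13.5 against E11.5 ON, and, relative to Sox10 in inner against outer ONL, Hey1 (-0.060 to 0.20) and Hey2 (-0.22 to 0.10). Hes6 in E16.5 against E13.5 ON was called without E16.5 ON replicate 1 (-0.76, adjusted p = 0.0332). With a replicate block on the E16.5 libraries alone, 5 members were called for outer ONL against ON, as without it, and Hes1 in outer ONL against TN (-1.10, adjusted p = 0.0322) and Hes5 in ON against TN (1.84, adjusted p = 0.00646) were called in addition, as they also were in that fit without the block; the block changed no other call of a member. With 4 libraries or fewer per group, leaving one out lifts the smallest exact permutation p to 0.0667 or 0.1 in comparisons with TN. Nrarp is limited by depth.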
